A study of Danio rerio with 18 samples.

Results

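Perfluorobutanesulfonic acid (PFBS) at 7000 µM was compared with PFBS at 3500 µM, a 2-fold step between the highest concentrations used, in RNA of whole zebrafish larvae. Its samples are set by concentration, 3 at each, and are 6 of the 18 samples of the study. All 18 samples were AB wild type zebrafish, whole body, at 120 hours post fertilisation (hpf). The other 12 were unexposed controls and larvae at 7, 70 or 700 µM, with 3 samples in each group, and their libraries enter the fit, where they add to the estimate of the spread. The control levels are given below to show where a level stands. When exposure began and ended, its vehicle and how many larvae made up each sample are unknown from the sources used here. The labels do not state whether replicates came from separate batches of larvae, so each p-value rests on a spread between samples that may be technical only.

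PFBS is a short-chain perfluorinated sulfonate, a surfactant that resists breakdown and is used in place of longer-chain relatives. RNA of a whole larva mixes all tissues, and in a free-swimming larva trunk muscle, eye, brain, skin and liver give much of it. A level in such RNA therefore moves both with the number of cells of a type and with the RNA each cell makes, and fewer cells of a type and less RNA per cell cannot be told apart here.

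Counts per library were 17891964, 16040209 and 18656406 at 3500 µM and 17366633, 15991654 and 16984935 at 7000 µM. Levels are given as CPM, so that libraries of different depth can be set side by side. For these a gene's counts were divided by a scaled library total and multiplied by the usual constant. The scaled total was the library's counts in genes that passed the filter on low counts, times its TMM scaling factor. These factors were 0.893 to 0.962 at 3500 µM and 0.990 to 1.05 at 7000 µM. Shares given in percent are of all counts of a library, without these factors. Replicate 3 of 7000 µM stood apart from the others. On the first principal component, which held 30.9% of the variance, it lay at -74.47, replicates 1 and 2 lay at -34.1 and -20.01, and the 3500 µM libraries lay between -23.44 and 5.273. The chi-square per degree of freedom between replicates was 6.646 for replicates 1 and 2 of 7000 µM and 53.51 and 61.55 for the pairs that hold replicate 3, against 9.094 to 18.71 among the 3500 µM libraries. Some small noncoding RNA genes were high in it as well. BX649540.1, a gene of the biotype misc_RNA, had 3.76, 7.13 and 7.49 CPM at 3500 µM and 24.6, 8.73 and 139 CPM at 7000 µM. It varied widely in controls too, at 20.3 ± 15.2 CPM (SD, n = 3). Of the genes matched to the muscle, photoreceptor, epidermis and liver lists 108 of 111, 88 of 91, 49 of 51 and 81 of 90 passed the filter on low counts, so the markers of a whole body were present. The calls of most lists below, and of many genes named in them, are also given without replicate 3 of 7000 µM.

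Of 21046 genes tested, 1321 passed an adjusted p of 0.05 (edgeR quasi-likelihood test, Benjamini-Hochberg adjustment over all genes tested), and "rose", "fell" and "called" are used below only of such genes. The called genes were 6.28% of those tested. Of them, 513 were higher at 7000 µM (2.44% of genes tested) and 808 were lower (3.84%), so 38.8% of the calls were rises, and 49.1% were when libraries were scaled by median-of-ratios size factors. A change of at least 2-fold was seen in 74 of the rises and 352 of the falls. Leaving out replicate 3 of 7000 µM gave 287 called genes (1.35%), 90 of them higher (0.422%) and 197 lower (0.924%). Both ways of testing called 283 genes in the same direction, and 0 genes called with all libraries had the other sign without that library. There were 331 calls without replicate 1 of 3500 µM and 206 when the 6 libraries were fitted alone. Leaving out each of the 6 libraries in turn left 220 genes called in every fit, 80 higher and 140 lower. The median log2 fold change of all genes tested was 0.00. Counts of called members in the lists below are read against the shares of 2.44% and 3.84%, and a count of 1 or 2 is no result about a list.

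**Figure D1:**
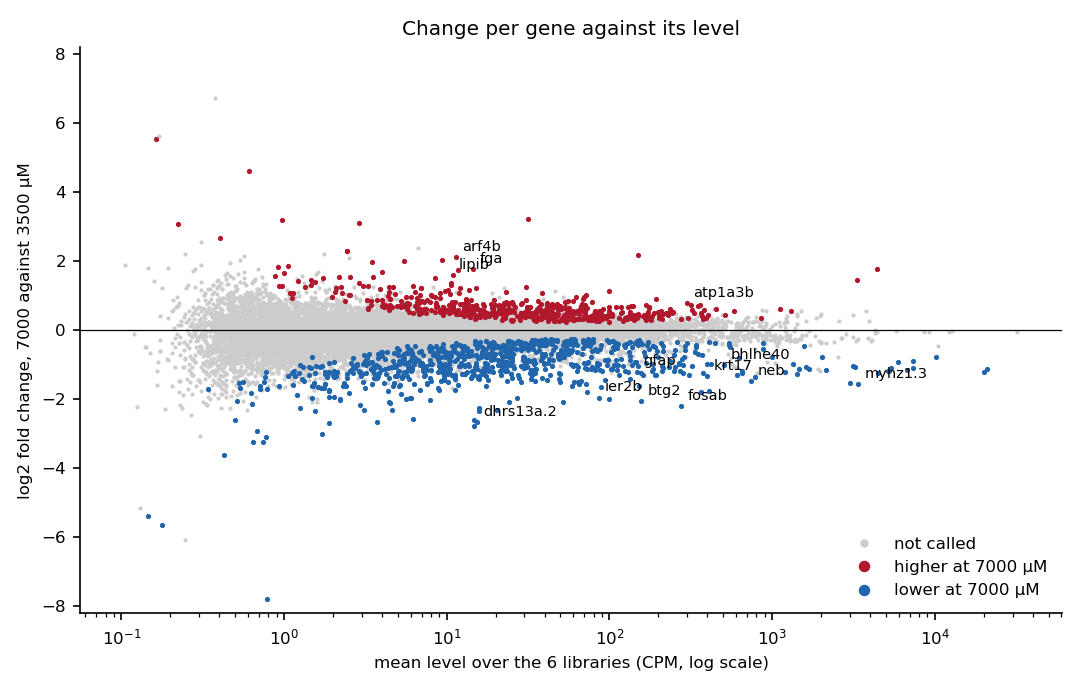
Each point is a gene, with its mean level over the 6 libraries (CPM, log axis) on the horizontal axis and its log2 fold change at 7000 against 3500 µM on the vertical axis. Red points are the 513 genes called higher, blue points the 808 called lower, and grey points the genes not called.

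**Figure D2:**
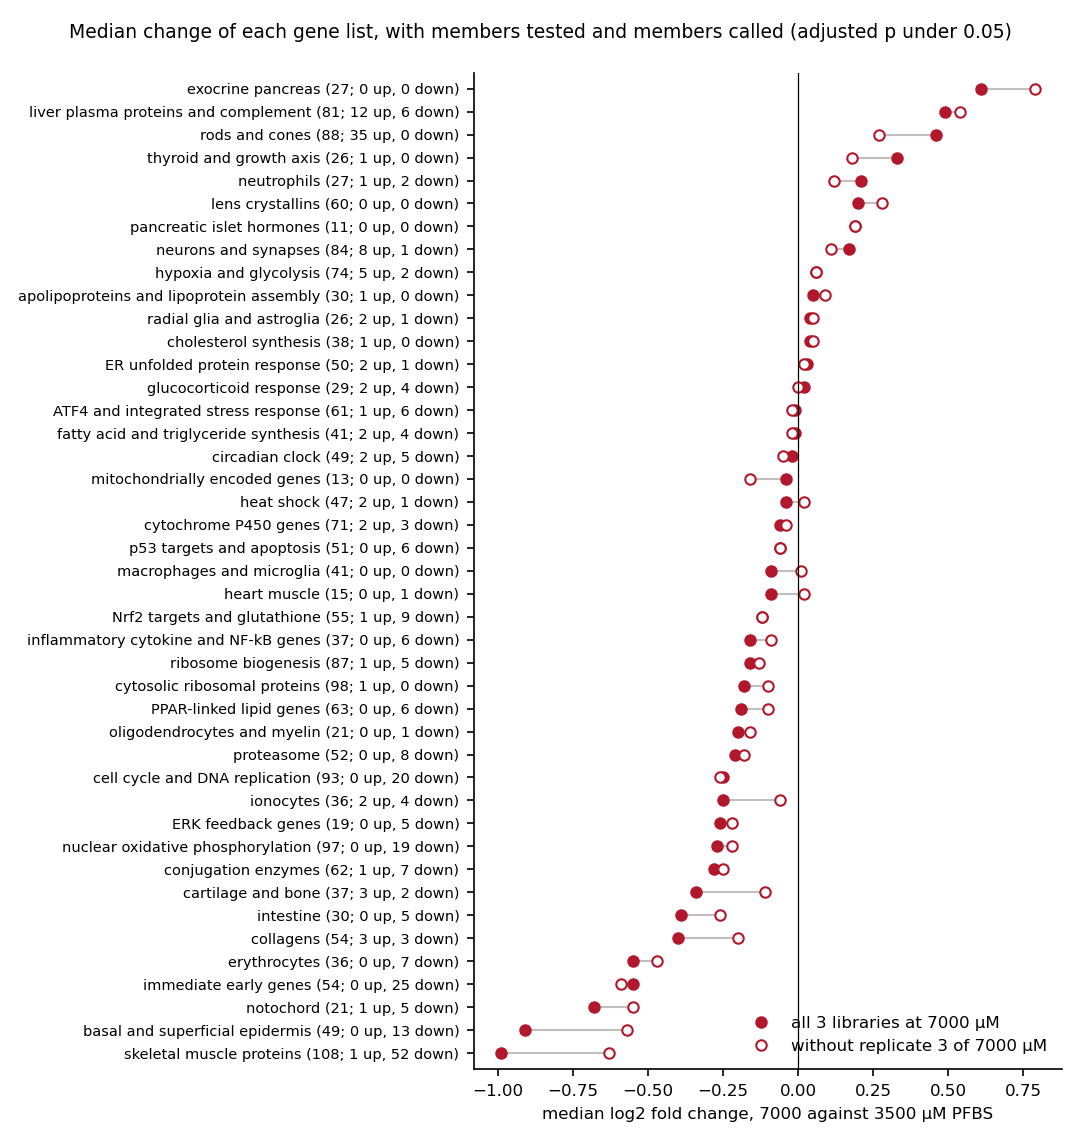
Each line is a gene list with its number of members tested and called, and the horizontal axis is the median log2 fold change of its members at 7000 against 3500 µM. Filled points use all 3 libraries of 7000 µM and open points leave out replicate 3. Skeletal muscle and epidermis have the lowest medians (-0.99 and -0.91) and the rod and cone, liver and pancreas lists lie to the right of 0.

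Many immediate early genes, which cells switch on within minutes of a stimulus, fell from 3500 to 7000 µM. Of 54 members tested 25 fell and 0 rose, with a median log2 fold change of -0.55. Without replicate 3 of 7000 µM 16 fell and the median was -0.59. There were 16 falls without replicate 1 of 3500 µM and 15, at a median of -0.29, without replicate 2 of 3500 µM, and 9 when the 6 libraries were fitted alone. The list took 0.485%, 0.755% and 0.3845% of counts at 3500 µM and 0.323%, 0.295% and 0.3857% at 7000 µM. Its share of counts, which lacks the TMM factors, thus overlapped between the groups in replicate 3 of each. With those factors the groups were apart in the members' mean log2 CPM, set against the 3500 µM mean. It was -0.09, 0.48 and -0.4 at 3500 µM and -0.59, -0.85 and -0.61 at 7000 µM.

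The gene fosab, a subunit of the AP-1 transcription factor (chromosome 20, 46552311 to 46554440), had 414, 758 and 183 CPM at 3500 µM and 101, 44.7 and 149 CPM at 7000 µM. The groups did not overlap, but replicate 3 of 3500 µM lay close to replicate 3 of 7000 µM. The fall was 2.2 ± 0.38 (standard error) on the log2 scale (adjusted p = 0.0048, and 0.0049 without replicate 3 of 7000 µM). The control mean was 67.3 ± 4.38 CPM (SD, n = 3). The zinc-finger factor gene egr1 varied less between libraries. It had 623, 709 and 570.1 CPM at 3500 µM and 169, 153 and 234 CPM at 7000 µM, a log2 fold change of -1.77 ± 0.14 (adjusted p = 6.8e-06, and 3.9e-07 without replicate 3 of 7000 µM). The control mean of 228 CPM lay within the range of the 7000 µM libraries and below all 3500 µM libraries.

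The antiproliferative gene btg2, an immediate early gene that p53 also induces (chromosome 22, 336256 to 339623), had 220.0, 396 and 144 CPM at 3500 µM and 62.0, 43.1 and 78.6 CPM at 7000 µM. Its log2 fold change was -2.05 ± 0.26 (adjusted p = 0.00057, and 0.00082 without replicate 3 of 7000 µM), and the control mean was 62.1 CPM. ier2b, which encodes a short-lived nuclear protein, had 126, 214 and 70.2 CPM at 3500 µM and 36.0, 23.8 and 46.1 CPM at 7000 µM. Its fall was also called without replicate 3 of 7000 µM (adjusted p = 0.0026). In both genes replicate 2 was the highest library of 3500 µM and the lowest of 7000 µM. The neuronal activity gene npas4a followed the same order, with 470.5, 928 and 308 CPM at 3500 µM and 189, 49.2 and 251 CPM at 7000 µM (log2 fold change -1.80 ± 0.40, adjusted p = 0.015). egr2a fell by 2.56 on the log2 scale from a spread of 2.64 to 22.8 CPM at 3500 µM, and its call was lost without replicate 3 of 7000 µM (adjusted p = 0.0523).

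Some genes that damp these signals fell too. Of 19 feedback genes of the ERK kinase pathway 5 fell and 0 rose (median -0.26), and 3 of the falls were called without replicate 3 of 7000 µM. Among them dusp1, a phosphatase that switches off MAP kinases, had 126, 138 and 119 CPM at 3500 µM and 70.6, 61.1 and 77.6 CPM at 7000 µM. The groups were well separated, with a log2 fold change of -0.87 ± 0.12 (adjusted p = 0.0015, and 0.0027 without replicate 3 of 7000 µM). The control mean was 77.5 CPM. The receptor-pathway inhibitor genes spry4 and il17rd fell by 0.56 and 0.47 on the log2 scale, and neither was called without replicate 3 of 7000 µM.

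The inflammatory list of 37 genes had 6 falls and 0 rises, 4 of them also called without replicate 3 of 7000 µM, and a median of -0.16. socs3a, an inhibitor of cytokine signalling, had 99.5, 139 and 55.6 CPM at 3500 µM and 30.4, 36.7 and 38.6 CPM at 7000 µM. Its log2 fold change was -1.48 ± 0.25 (adjusted p = 0.0043, and 0.015 without replicate 3 of 7000 µM). The prostaglandin synthase genes ptgs2a and ptgs2b fell by 1.37 and 1.04 on the log2 scale, and the call of ptgs2a was lost without replicate 3 of 7000 µM (adjusted p = 0.08). nfkbiaa, the inhibitor that NF-kB itself induces, fell by 0.96. Of 41 macrophage and microglia genes edgeR called 0 (median -0.09), with 12 at an unadjusted p below 0.05. DESeq2 called 2 higher, voom with sample weights 2 higher and 5 lower, edgeR under median-of-ratios scaling 1 higher, and edgeR with the replicate number as a block 1 lower. Leaving out single libraries gave 0 or 1 higher and 0 to 2 lower. Of 27 neutrophil genes 1 rose and 2 fell, and the rise was also called without replicate 3 of 7000 µM.

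In the circadian clock list 5 of 49 genes fell and 2 rose, with a median of -0.02. The repressor gene bhlhe40 had 644, 881 and 499 CPM at 3500 µM and 329, 279 and 399.8 CPM at 7000 µM (log2 fold change -1.01 ± 0.17, adjusted p = 0.0042). nr1d1, the nuclear receptor REV-ERB alpha, had 527, 779 and 385 CPM at 3500 µM and 266, 244 and 341 CPM at 7000 µM. Control means of these genes were 331 and 296 CPM, near the 7000 µM libraries. nfil3-5 and nfil3-6, repressors of the same circuit, fell by 0.86 and 1.31 on the log2 scale, and all 4 of these falls were also called without replicate 3 of 7000 µM. With the 6 libraries alone 0 genes of the list were called. The sampling hour of each group is not given in the sources used here.

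**Figure D3:**
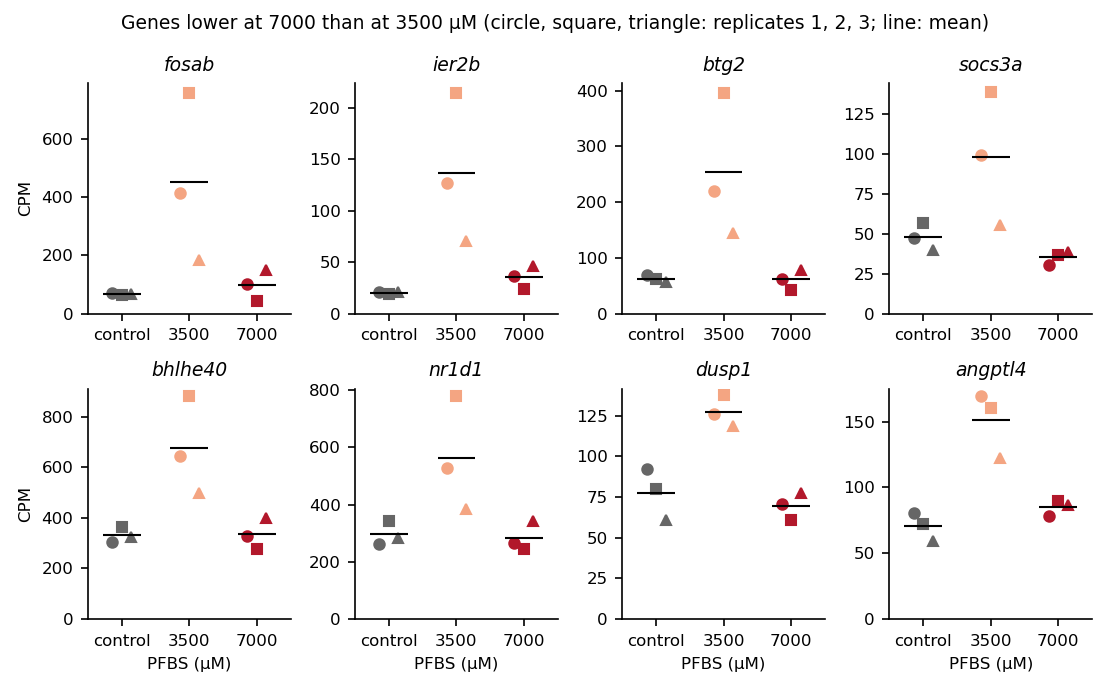
CPM of 8 genes in each library of the control, 3500 µM and 7000 µM groups, with replicates 1, 2 and 3 as circle, square and triangle and the group mean as a line. All 8 genes are higher at 3500 µM than at 7000 µM, and the 7000 µM means of btg2, bhlhe40, nr1d1 and dusp1 lie close to the control means.

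Of 108 skeletal muscle genes tested 52 fell and 1 rose, with a median log2 fold change of -0.99. In 75 of the 108 all libraries of 7000 µM were below all of 3500 µM, against 13.5% of all genes tested. When replicate 3 of 7000 µM was left out 15 fell, 0 rose and the median was -0.63. Without replicates 1, 2 or 3 of 3500 µM in turn 1, 33 and 30 genes fell, at a median of -0.90 in the first case, and fitting the 6 libraries alone called 0 at a median of -0.97. Fitting the 6 libraries without replicate 3 of 7000 µM called 57 lower.

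The muscle list took 18.3%, 16.2% and 15.5% of all counts at 3500 µM and 11%, 10.9% and 4.24% at 7000 µM. The groups did not overlap, and replicate 3 of 7000 µM was far below the rest. The means were 16.7 ± 1.43% and 8.73 ± 3.89% (SD, n = 3 each), a difference of -7.94 percentage points with an exact two-sided permutation p of 0.10, which is the smallest that 3 against 3 allows. With replicate 3 of 7000 µM left out, the difference between 7000 and 3500 µM was -5.69 percentage points. Controls had 17.7 ± 0.483%. At 7, 70 and 700 µM the list took 14.4% to 18.1%, 11.7% to 17.6% and 11.9% to 14.7%. All 700 µM libraries were thus below all 3500 µM libraries too, and a low muscle share was not particular to 7000 µM.

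myhz1.3, a fast myosin heavy chain (chromosome 5, 32262499 to 32274383), had 5698, 4763 and 4678 CPM at 3500 µM and 2339.7, 2175 and 586 CPM at 7000 µM. Its log2 fold change was -1.57 ± 0.36 (adjusted p = 0.017, and 0.027 without replicate 3 of 7000 µM). Myosin genes of this cluster are near copies, and how reads matching several places were counted was not stated, so values of single copies are uncertain. neb, the giant thin-filament protein nebulin (chromosome 9, 22805138 to 22892838), had 1238, 1141 and 909 CPM at 3500 µM and 486, 519.8 and 179 CPM at 7000 µM. The groups did not overlap, and the fall of 1.47 on the log2 scale was also called without replicate 3 of 7000 µM (adjusted p = 0.049). Without replicate 1 of 3500 µM neither myhz1.3 nor neb was called (adjusted p = 0.072 and 0.068). ampd1, the muscle AMP deaminase, had 953, 868 and 949 CPM at 3500 µM and 492, 463 and 213 CPM at 7000 µM, a log2 fold change of -1.25 ± 0.24.

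The falls of the list were not of filament genes alone. The myogenic factor gene myog had 19, 16.3 and 20.2 CPM at 3500 µM and between 4.48 and 12.2 CPM at 7000 µM (log2 fold change -1.05 ± 0.24, adjusted p = 0.017, and 0.0501 without replicate 3 of 7000 µM). The calcium release channel gene ryr1b fell by 0.97 and the kelch protein gene klhl31 by 1.43 on the log2 scale, neither called without replicate 3 of 7000 µM. trim63b, a ubiquitin ligase of muscle wasting, is a member of the glucocorticoid response list and not of the muscle list. It had 57.5, 66.3 and 55.6 CPM at 3500 µM and 34, 37.3 and 15.8 CPM at 7000 µM. It fell with the muscle genes, by 1.04 on the log2 scale, and kept its call without that library (adjusted p = 0.028). The single rise of the muscle list was the myoglobin gene mb, with 42.8, 26.3 and 57.7 CPM at 3500 µM and 56.4, 66.8 and 123 CPM at 7000 µM. Its groups overlapped, and the call was lost without replicate 3 of 7000 µM (adjusted p = 0.20). Of 15 heart muscle genes 1 fell, actc1a (ENSDARG00000042535), which skeletal muscle also expresses, and it was not called without that library.

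**Figure D4:**
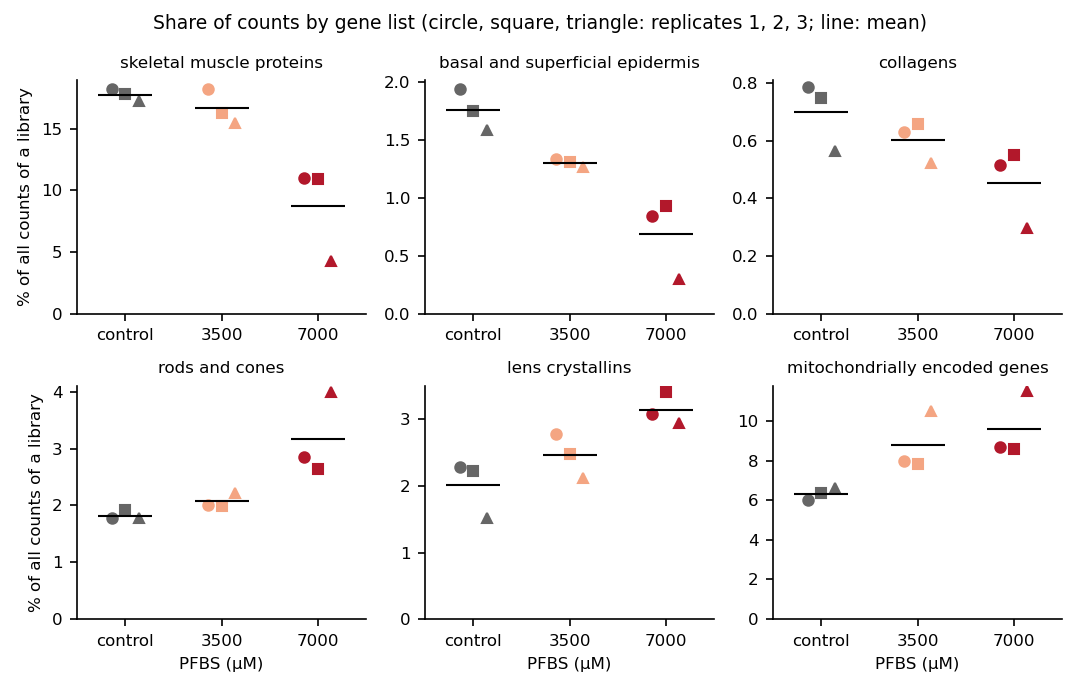
Percent of all counts of a library taken by each of 6 gene lists in the control, 3500 µM and 7000 µM groups, with replicates 1, 2 and 3 as circle, square and triangle and the group mean as a line. Muscle and epidermis are lower in all 3 libraries of 7000 µM, rods and cones are higher in all 3, and replicate 3 of 7000 µM (triangle) is the most extreme library in the muscle, epidermis, collagen and rod and cone panels.

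Of 49 genes of the basal and superficial epidermis 13 fell and 0 rose (median -0.91), and in 40 all 7000 µM libraries were below all 3500 µM libraries, against 13.5% of all genes tested. Without replicate 3 of 7000 µM 4 fell and the median was -0.57, without replicates 1 or 3 of 3500 µM 5 and 6 fell, and with the 6 libraries alone 3 fell. The list took 1.33%, 1.3% and 1.27% of counts at 3500 µM and 0.839%, 0.930% and 0.299% at 7000 µM, against 1.58% to 1.93% in controls. The 3500 and 7000 µM groups were apart, and replicate 3 of 7000 µM was again lowest. At 70 and 700 µM the list took 0.843% to 1.48% and 0.619% to 1.23%, so the 700 µM libraries were also below all 3500 µM libraries. epcam, an adhesion protein of epithelia, had 29.7, 45.3 and 34.8 CPM at 3500 µM and 18.5, 15.8 and 7.57 CPM at 7000 µM (log2 fold change -1.39 ± 0.30, adjusted p = 0.014). The keratin gene krt17 fell by 1.34 from a mean of 573 ± 17.9 CPM (SD, n = 3) to 226 ± 125 CPM, and the tight junction gene cldnb by 1.47. None of epcam, krt17 and cldnb was called without replicate 3 of 7000 µM.

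Among the largest falls of all genes were dsg2.1, named for a cadherin of desmosomes, and and2, a protein of the fibrils that stiffen the fin fold. The biotype of dsg2.1 is processed_transcript and not protein_coding. dsg2.1 had 15.2, 16.0 and 6.90 CPM at 3500 µM and 3.43, 4.48 and 1.46 CPM at 7000 µM, a log2 fold change of -2.02 ± 0.45 (adjusted p = 0.015). and2 had 179, 88.8 and 204 CPM at 3500 µM and 41.5, 62.4 and 15.8 CPM at 7000 µM, and its log2 fold change was -1.98 ± 0.54 (adjusted p = 0.036). The libraries of the groups overlapped in neither gene, and both calls were lost without replicate 3 of 7000 µM.

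Of 36 ionocyte genes 4 fell and 2 rose (median -0.25), with 1 fall also called without replicate 3 of 7000 µM. rhcgb, an ammonia channel, was that gene, with 5.38, 5.38 and 4.26 CPM at 3500 µM and 1.69, 2.79 and 2.75 CPM at 7000 µM. Its sister gene rhcga had 67.6, 44.5 and 41.5 CPM at 3500 µM and 18, 28.1 and 9.70 CPM at 7000 µM, and the controls were at 23.8 CPM. The sodium pump genes atp1a1a.3 and atp1a1a.4 fell by 1.3 and 0.94 on the log2 scale. The rises were those of slc12a2, a sodium, potassium and chloride cotransporter, and atp6v0a1a, a subunit of the vacuolar proton pump, by 0.34 and 0.38. Apart from rhcgb these calls were lost without replicate 3 of 7000 µM, when the median of the list was -0.06. Without replicate 1 of 3500 µM 0 genes of the list were called, rhcgb included (adjusted p = 0.063). The list took 0.124% to 0.142% of counts at 3500 µM and 0.136% to 0.143% at 7000 µM, so its share overlapped between the groups. These shares lack the TMM factors, which were lower at 3500 µM. Scaling by them lowers the 7000 µM sums against those of 3500 µM. With the factors the groups met at -0.11 in the members' mean log2 CPM, set against the 3500 µM mean. It was 0.16, -0.05 and -0.11 at 3500 µM and -0.28, -0.11 and -0.71 at 7000 µM.

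Notochord genes fell in 5 of 21 members and rose in 1, with a median of -0.68 and 2 falls called without replicate 3 of 7000 µM. tbxta, the Brachyury factor that marks the notochord, had 23.4, 20.0 and 19.5 CPM at 3500 µM and 11.2, 9.15 and 8.30 CPM at 7000 µM. The 3 libraries at 7000 µM were near the control mean of 9.31 CPM, with a log2 fold change of -1.13 ± 0.18 (adjusted p = 0.0031, and 0.018 without replicate 3). ccn1, a matricellular protein that is also an early response gene, fell by 1.38 on the log2 scale. col8a1a, a collagen of the notochord sheath, fell by 1.98, and its call was lost without replicate 3 of 7000 µM (adjusted p = 0.071).

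Of 54 collagen genes 3 rose and 3 fell (median -0.40), and 0 were called without replicate 3 of 7000 µM. Cartilage and bone genes also went both ways, with 3 rises and 2 falls among 37 (median -0.34). Of these 1 rise, that of tnfrsf11b, was called without replicate 3 of 7000 µM, with 0 falls and a median of -0.11. matn1, a matrix protein of cartilage, had 9.02, 10.4 and 7.61 CPM at 3500 µM and 20.7, 22.2 and 20.3 CPM at 7000 µM, with controls at 16.4 CPM. The related matn3a went the other way, from 113 ± 15.2 CPM to 50.8 ± 25.4 CPM (SD, n = 3 each). tnfrsf11b, osteoprotegerin, the decoy receptor that restrains osteoclasts (chromosome 19, 142044 to 148055), had 4.13, 4.67 and 4.32 CPM at 3500 µM and 7.45, 11.8 and 18.3 CPM at 7000 µM. All libraries of 7000 µM were higher, and the log2 fold change was 1.52 ± 0.26 (adjusted p = 0.0043, and 0.021 without replicate 3).

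Erythrocyte genes fell in 7 of 36 members and rose in 0 (median -0.55), and 1 fall was called without replicate 3 of 7000 µM. That gene was tspo, a protein of the outer mitochondrial membrane, with 12.4, 11.6 and 12.2 CPM at 3500 µM and 6.81, 8.85 and 6.33 CPM at 7000 µM (log2 fold change -0.72 ± 0.14, adjusted p = 0.008, and 0.0499 without replicate 3). The embryonic alpha globin gene hbae1.1 had 51.8, 38.7 and 52.0 CPM at 3500 µM and 20.5, 24.3 and 17.2 CPM at 7000 µM, with a log2 fold change of -1.2 ± 0.25 and an adjusted p of 0.011. The 2 copies of hbae1.3 (ENSDARG00000088330 and ENSDARG00000089124) fell by 1.24 and 1.22. None of these globin calls was kept without replicate 3 of 7000 µM (adjusted p = 0.061 for hbae1.1, and 0.053 and 0.073 for the copies of hbae1.3). Globin genes are near copies, so the split between them is uncertain, and the control mean of hbae1.1 was 41.6 CPM.

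Of 88 rod and cone genes tested 35 rose and 0 fell, with a median log2 fold change of 0.46, and in 45 all 7000 µM libraries were above all 3500 µM libraries, against 11% of all genes tested. With replicate 3 of 7000 µM left out 8 rose and the median was 0.27, while 16 and 18 rose without replicates 1 or 2 of 3500 µM, and 6 rose with the 6 libraries alone. The list took 2.01%, 1.99% and 2.22% of counts at 3500 µM, 2.85%, 2.64% and 4% at 7000 µM and 1.77% to 1.91% in controls. The muscle share of the same libraries fell as given above, and the part of either share in the other was not tested. At 70 and 700 µM the rod and cone list took 1.88% to 2.68% and 2.40% to 3.03%. In these shares all 700 µM libraries were thus above all 3500 µM libraries as well. The shares lack the TMM factors, which were lower at 3500 than at 700 µM, and scaling by them narrows this gap. They do not show whether the scaled sums of 700 and 3500 µM were apart.

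cngb3.1, a subunit of the cone channel that closes in light (chromosome 24, 31402894 to 31425799), had 7.39, 4.21 and 6.66 CPM at 3500 µM and 13.2, 14.2 and 18.2 CPM at 7000 µM. Its log2 fold change was 1.32 ± 0.22 (adjusted p = 0.0043, and 0.022 without replicate 3 of 7000 µM). prph2a, a protein of the outer segment rim, had 268, 238 and 299 CPM at 3500 µM and 389, 379 and 539.7 CPM at 7000 µM. saga, an arrestin that ends the light signal, had 167, 151 and 186 CPM at 3500 µM and 261, 216 and 266 CPM at 7000 µM. In these genes no library of 7000 µM overlapped those of 3500 µM, and prph2a and saga rose by 0.70 and 0.56 on the log2 scale, both also called without replicate 3.

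The opsins, the light-sensing proteins themselves, were less uniform. opn1mw2, a green cone opsin, had 98.0, 126 and 182 CPM at 3500 µM and 279, 158 and 324 CPM at 7000 µM, so its groups overlapped (log2 fold change 0.90 ± 0.23, adjusted p = 0.026). Its call was lost without replicate 3 of 7000 µM (adjusted p = 0.15), and also without replicate 1 of 7000 µM or replicates 1 or 2 of 3500 µM. The green opsins are near copies, and reads may be split between them. The rod opsin gene rho had 3690.4, 3346 and 3718 CPM at 3500 µM and 4499, 3671 and 4821 CPM at 7000 µM and was not called (log2 fold change 0.27 ± 0.15, adjusted p = 0.27). Of 60 lens crystallin genes edgeR called 0 (median 0.20), with 2 at an unadjusted p below 0.05, DESeq2 called 1 lower, and voom with sample weights called 1 higher and 1 lower. The list took 2.12% to 2.78% of counts at 3500 µM and 2.95% to 3.41% at 7000 µM. Controls had 1.51% to 2.28%. The 700 µM libraries, at 2.81% to 3.24%, were also above all 3500 µM libraries in this share, which lacks the TMM factors. With those factors the 3500 and 7000 µM groups overlapped in the members' mean log2 CPM, set against the 3500 µM mean. It was 0.16, 0.04 and -0.19 at 3500 µM and 0.19, 0.42 and 0.05 at 7000 µM.

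Neuronal genes rose in 8 of 84 members and fell in 1, with a median of 0.17. Without replicate 1 of 3500 µM, or with the 6 libraries alone, 2 rose and 0 fell. Only 1 rise was called without replicate 3 of 7000 µM. That gene was atp1a3b, the neuronal sodium pump (chromosome 16, 10776688 to 10820909), with 224, 229 and 202 CPM at 3500 µM and 344, 345 and 444 CPM at 7000 µM. The log2 fold change was 0.79 ± 0.12 (adjusted p = 0.0023), and the control mean of 178 CPM was below both groups. slc17a7a and sypb, a glutamate transporter and a protein of synaptic vesicles, rose by 0.53 and 0.49 on the log2 scale.

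Of 26 genes of radial glia and astroglia 2 rose and 1 fell. The fall was gfap, the glial filament protein (chromosome 3, 31792441 to 31804481), with 212, 251 and 154 CPM at 3500 µM and 89.3, 105 and 75.5 CPM at 7000 µM. All 7000 µM libraries were below the control mean of 171 ± 29.6 CPM (SD, n = 3), and the log2 fold change of -1.2 ± 0.19 was called with and without replicate 3 (adjusted p = 0.0026 and 0.016). The glutamate transporter gene slc1a2a of the same cells had 97.9, 99.9 and 112 CPM at 3500 µM and 149, 147 and 206 CPM at 7000 µM. It rose by 0.70 on the log2 scale, a call lost without replicate 3 (adjusted p = 0.06). Of 21 oligodendrocyte and myelin genes 1 fell, the early response gene egr2b, and it was not called without replicate 3.

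Some plasma protein genes of the liver were low at 3500 µM and rose at 7000 µM. Of 81 genes of the liver and complement list 12 rose and 6 fell, with a median of 0.49 (0.54 without replicate 3 of 7000 µM, when 1 rose and 0 fell). Leaving out any other library gave 1 to 8 rises and 0 to 7 falls, the fewest of both without replicate 1 of 3500 µM, and the 6 libraries alone gave 8 rises and 0 falls. The list as a whole took 0.143% to 0.172% of counts at 3500 µM and 0.104% to 0.157% at 7000 µM, so its share overlapped between the groups. Controls had 0.193% to 0.255%, above both. These shares lack the TMM factors, which were lower at 3500 µM. Scaling by them moves the sum at 7000 µM further down against 3500 µM. The members' mean log2 CPM, set against the 3500 µM mean, weights each member alike and went the other way. It was 0.22, -0.03 and -0.18 at 3500 µM and 0.33, 0.54 and 0.23 at 7000 µM. The rises were thus of single members and not of the summed counts of the list.

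fga, the alpha chain of fibrinogen (chromosome 1, 10063501 to 10071539), had 8.26, 7.52 and 4.2 CPM at 3500 µM and 23.9, 29.6 and 14.1 CPM at 7000 µM. The groups were apart, the control mean was 21.8 ± 9.79 CPM (SD, n = 3), and the log2 fold change was 1.76 ± 0.47 (adjusted p = 0.035). It was the rise of this list called without replicate 3 of 7000 µM, at an adjusted p of 0.0469, but its call was lost when any of the other 5 libraries was left out (adjusted p = 0.063 to 0.1). serpinc1, the clotting inhibitor antithrombin, had 3.01, 2.79 and 2.52 CPM at 3500 µM and 5.94, 7.39 and 6.39 CPM at 7000 µM, with a log2 fold change of 1.24 ± 0.31 (adjusted p = 0.025). c3b.2, a complement component C3 gene, had 3.26, 2.85 and 1.80 CPM at 3500 µM and 5.35, 6.42 and 6.84 CPM at 7000 µM. hpda, an enzyme of tyrosine breakdown, rose from 4.17 ± 1.2 to 9.74 ± 1.27 CPM (SD, n = 3 each). Control means were 8, 6.67 and 12.9 CPM for serpinc1, c3b.2 and hpda, so in all 3 the 3500 µM libraries were the low group.

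The falls of the list were other genes. rbp4, the retinol carrier of plasma, had 352, 288 and 307 CPM at 3500 µM and 162, 206 and 83.7 CPM at 7000 µM (log2 fold change -1.07 ± 0.25, adjusted p = 0.018). cfd, a protease of the alternative complement pathway, had 53.1, 31.2 and 35.2 CPM at 3500 µM and 16.6, 21.7 and 7.96 CPM at 7000 µM. Neither kept its call without replicate 3 of 7000 µM. Outside the list, selenop2, a selenoprotein P that carries selenium in plasma, had 2.38, 1.81 and 1.44 CPM at 3500 µM and 6.05, 6.85 and 5.33 CPM at 7000 µM, beside 6.66 CPM in controls. It rose by 1.69 ± 0.36 on the log2 scale (adjusted p = 0.013, and 0.033 without replicate 3).

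Of 27 genes of the exocrine pancreas edgeR called 0 (median 0.61), with 1 at an unadjusted p below 0.05, and DESeq2 called 0. Voom with sample weights called 1 higher, edgeR on the 6 libraries alone 2 higher, and edgeR on those libraries without replicate 3 of 7000 µM 6 higher. The trypsin gene prss1 had 34.3, 35.2 and 36.6 CPM at 3500 µM and 77.0, 83.4 and 44.0 CPM at 7000 µM, with a log2 fold change of 0.95 ± 0.76 and an adjusted p of 0.49. The groups did not overlap, but the fit over all 18 libraries gave this gene a wide error. Of 11 islet hormone genes edgeR called 0 (median 0.19), with 3 at an unadjusted p below 0.05, and DESeq2 and voom with sample weights each called 2 higher. Intestinal genes fell in 5 of 30 members and rose in 0 (median -0.39). fabp6, the ileal bile acid binding protein (chromosome 21, 30043054 to 30047353), had 237, 200.5 and 328 CPM at 3500 µM and 122, 131 and 101 CPM at 7000 µM. The log2 fold change was -1.11 ± 0.16 (adjusted p = 0.0015, and 0.0089 without replicate 3), and it was the fall of the list called both ways. fabp2, the intestinal fatty acid binding protein, fell by 0.91, and the enterocyte cadherin gene cdh17 by 0.76.

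**Figure D5:**
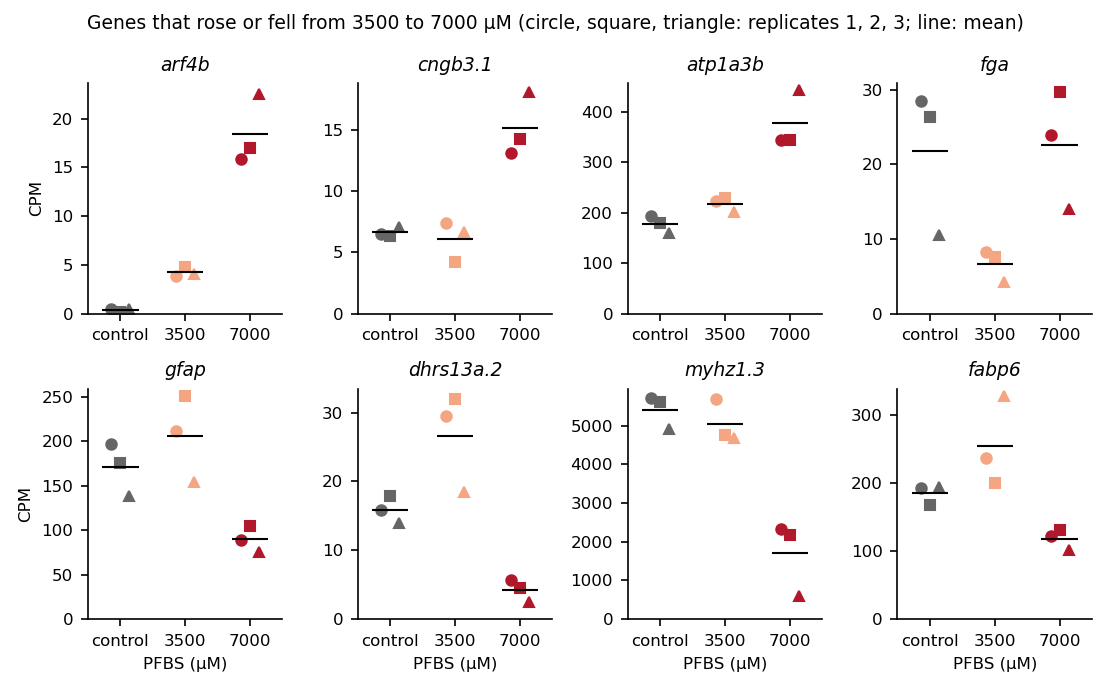
CPM of 8 genes in each library of the control, 3500 µM and 7000 µM groups, with replicates 1, 2 and 3 as circle, square and triangle and the group mean as a line. arf4b, cngb3.1 and atp1a3b are highest at 7000 µM, fga is lowest at 3500 µM, and gfap, dhrs13a.2, myhz1.3 and fabp6 are lowest at 7000 µM.

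PPAR-linked lipid genes, targets of the nuclear receptors that fatty acids and many perfluorinated acids bind in mammals, fell in 6 of 63 members and rose in 0 (median -0.19), and 3 of the falls were called without replicate 3 of 7000 µM. angptl4, an inhibitor of lipoprotein lipase, had 169.5, 161 and 123 CPM at 3500 µM and 77.9, 89.6 and 86.9 CPM at 7000 µM. The control mean of 70.8 CPM was below all libraries of both groups. The log2 fold change was -0.83 ± 0.13 (adjusted p = 0.0023, and 0.0089 without replicate 3 of 7000 µM). ucp3, a mitochondrial carrier of muscle, had 72.9, 82.7 and 58.8 CPM at 3500 µM and 28.6, 39.9 and 12.7 CPM at 7000 µM, with controls at 19.1 CPM.

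Among 41 genes of fatty acid and triglyceride synthesis 4 fell and 2 rose, and 1 fall, that of elovl6l, was called without replicate 3 of 7000 µM. elovl6l, a fatty acid elongase, had 8.08, 7.32 and 6.36 CPM at 3500 µM and 1.63, 2.79 and 0.617 CPM at 7000 µM, a log2 fold change of -2.12 ± 0.37 (adjusted p = 0.0047, and 0.019 without replicate 3). The elongase genes elovl7b and elovl1a fell by 2.33 and 1.00. In the cholesterol synthesis list 1 of 38 rose, near the 2.44% of all genes tested, and it was the synthase gene hmgcs1, by 0.46. Median-of-ratios scaling and DESeq2 each called 4 higher in that list. Of 30 apolipoprotein and lipoprotein assembly genes 1 rose, apobb.2, from 0.435 ± 0.0965 to 1.32 ± 0.285 CPM (SD, n = 3 each), against 2.25 CPM in controls. Neither rise was called without replicate 3 of 7000 µM.

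Of 71 cytochrome P450 genes, many of which handle foreign compounds, 3 fell and 2 rose, close to the shares of all genes tested (3.84% and 2.44%), and 2 of the falls were called without replicate 3 of 7000 µM. Both were genes named cyp2y3. ENSDARG00000068493 had 3.88, 6.03 and 4.50 CPM at 3500 µM and 1.69, 1.03 and 1.79 CPM at 7000 µM, and controls were at 0.542 CPM. ENSDARG00000101423 fell by 0.94 on the log2 scale from a mean of 30.8 to 16.1 CPM. Their deposited positions overlap on chromosome 15, so the counts of the pair are uncertain. Of 62 conjugation enzymes 7 fell and 1 rose (median -0.28), and of 55 Nrf2 target and glutathione genes 9 fell and 1 rose (median -0.12). With replicate 3 of 7000 µM left out 1 gene fell and 0 rose in each of these lists. The rise of the Nrf2 list was gpx3, the plasma glutathione peroxidase, with 6.51, 3.63 and 7.37 CPM at 3500 µM and 10.8, 11.8 and 14.6 CPM at 7000 µM. The glutathione transferase genes gstt1a, gstt1b and gsto2 fell by 0.68, 0.85 and 0.75. The calls of gpx3 and of these transferases were lost without that library (adjusted p = 0.061 to 0.10).

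Calls in the stress lists are read against the 6.28% of all genes tested that were called. Of 47 heat shock genes 2 rose and 1 fell (median -0.04). serpinh1b, the collagen chaperone HSP47, had 70.6, 33.3 and 83.0 CPM at 3500 µM and 154, 144 and 115 CPM at 7000 µM, a log2 fold change of 1.14 ± 0.28 (adjusted p = 0.025). hsp90aa1.2, a cytosolic chaperone, had 163, 155 and 146 CPM at 3500 µM and 231, 201 and 224 CPM at 7000 µM, with each library above the control mean of 110.4 CPM. Both kept their call without replicate 3 of 7000 µM, but that of serpinh1b was lost without replicate 1 of 7000 µM or replicates 1 or 2 of 3500 µM.

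Of 61 genes of the ATF4 and integrated stress response list 6 fell and 1 rose, of 50 genes of the unfolded protein response of the endoplasmic reticulum 2 rose and 1 fell, and of 74 hypoxia and glycolysis genes 5 rose and 2 fell. Leaving out replicate 3 of 7000 µM gave 1 fall and 0 rises in the ATF4 list, 1 fall and 0 rises in the unfolded protein list and 0 calls in the hypoxia list. chac1, a glutathione-degrading ATF4 target, had 375, 423 and 382 CPM at 3500 µM and 273, 346 and 249.9 CPM at 7000 µM, and its call was among those lost (adjusted p = 0.14). sec23b, a coat protein of vesicles leaving the endoplasmic reticulum, had 93.3, 81.2 and 69.4 CPM at 3500 µM and 39.9, 43.2 and 39.0 CPM at 7000 µM. It fell by 1.00 ± 0.13 on the log2 scale (adjusted p = 0.00075, and 0.0049 without replicate 3). Of 51 p53 target and apoptosis genes 6 fell and 0 rose, with btg2, described above, the largest fall, and 4 fell without replicate 3 of 7000 µM. gadd45ab, a growth arrest gene, had 27.2, 38.7 and 21.8 CPM at 3500 µM and 13, 16.9 and 15.2 CPM at 7000 µM. Of 29 glucocorticoid response genes 4 fell and 2 rose, among the falls trim63b and g6pca.2, the catalytic subunit of glucose-6-phosphatase, and 1 fell and 1 rose without replicate 3 of 7000 µM.

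Called falls among genes of dividing cells were small. Of 93 cell cycle and DNA replication genes 20 fell and 0 rose (median -0.25), and in 46 all 7000 µM libraries were below all 3500 µM libraries, against 13.5% of all genes tested. Without replicate 3 of 7000 µM 5 fell at a median of -0.26, without replicates 1 or 3 of 3500 µM or 1 of 7000 µM 4, 7 and 9 fell, and with the 6 libraries alone 1 fell. cdc6, which loads the replicative helicase, had 13.7, 17.2 and 14.2 CPM at 3500 µM and 8.96, 9.33 and 8.74 CPM at 7000 µM. Its log2 fold change was -0.74 ± 0.13 (adjusted p = 0.0046, and 0.024 without replicate 3 of 7000 µM). tyms, which makes thymidylate for DNA synthesis, fell by 0.60. The control means of cdc6 and tyms were 13 and 13.6 CPM, so for these genes the 7000 µM group was the low one. The list took 0.363% to 0.383% of counts at 3500 µM, 0.338% to 0.356% at 7000 µM and 0.364% to 0.417% in controls. At 7, 70 and 700 µM it took 0.406% to 0.438%, 0.442% to 0.487% and 0.445% to 0.462%. In these shares all 3500 µM libraries were thus also below all libraries of these lower concentrations. The shares lack the TMM factors, which were lowest at 3500 µM, and scaling by them narrows this gap. In the scaled fit, 3500 µM minus control was 0.2, 0.1, 0.03 and -0.05 on the log2 scale for cdc6, mcm2, tubb2b and tyms.

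Nuclear genes of oxidative phosphorylation fell in 19 of 97 members and rose in 0 (median -0.27), and 0 were called without replicate 3 of 7000 µM (median -0.22) or without replicate 1 of 3500 µM. Their share of counts, 1.0798% to 1.1424% at 3500 µM and 0.951% to 1.0806% at 7000 µM, overlapped between the groups. With the TMM factors, which shares lack, the groups met at -0.15 in the members' mean log2 CPM, set against the 3500 µM mean. It was 0.06, -0.15 and 0.09 at 3500 µM and -0.15, -0.28 and -0.39 at 7000 µM. ndufa4l, an electron transport subunit, had 222, 191 and 230.3 CPM at 3500 µM and 167, 153 and 145 CPM at 7000 µM, and the control mean was 170.4 CPM. The largest called falls of this list were those of cox8b and cox6a2, muscle forms of cytochrome oxidase subunits in mammals. Of the 13 mitochondrially encoded genes edgeR and DESeq2 called 0, with a median of -0.04 and 0 at an unadjusted p below 0.05. Together they took 7.99%, 7.81% and 10.5% of counts at 3500 µM and 8.66%, 8.60% and 11.5% at 7000 µM. The groups overlapped, with a difference of 0.826 percentage points (exact two-sided permutation p = 0.50), which was -0.133 without replicate 3 of 7000 µM.

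Proteasome genes fell in 8 of 52 members and rose in 0 (median -0.21), led by psmb4, which fell by 0.35 on the log2 scale. When replicate 3 of 7000 µM was left out 1 fell and psmb4 was not called (adjusted p = 0.069), and without replicate 1 of 3500 µM, or with the 6 libraries alone, 0 were called. The list took 0.1989% to 0.2055% of counts at 3500 µM and 0.1966% to 0.1994% at 7000 µM, so its share overlapped between the groups. With the TMM factors, which shares lack, the groups were apart in the members' mean log2 CPM, set against the 3500 µM mean. It was 0.05, -0.06 and 0.01 at 3500 µM and -0.13, -0.18 and -0.21 at 7000 µM. Of 87 ribosome biogenesis genes 5 fell and 1 rose, and 2 fell without replicate 3 of 7000 µM. mycb and myca, Myc factors that drive this programme, fell by 0.64 and 0.40, and both were also called without replicate 3 of 7000 µM, though myca was not without replicate 1 of 3500 µM (adjusted p = 0.061). Among 98 genes matched as cytosolic ribosomal proteins the single call was rps6ka2, a kinase that the name pattern took in, and it was not called without that library. In the thyroid and growth axis list 1 of 26 rose, the neuropeptide gene trh, with 8.70, 9.92 and 10.6 CPM at 3500 µM and 16.1, 15.3 and 18.7 CPM at 7000 µM. Its log2 fold change of 0.78 ± 0.12 was also called without replicate 3 (adjusted p = 0.002 and 0.013).

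Among genes with a gene symbol, at 5 CPM or more in the higher group and without overlap between the groups, the largest rise was that of arf4b, a small GTPase of vesicle traffic at the Golgi (chromosome 11, 42466834 to 42472941). It had 3.88, 4.8 and 4.08 CPM at 3500 µM and 15.8, 17 and 22.5 CPM at 7000 µM, beside 0.364 ± 0.148 CPM (SD, n = 3) in controls. The groups were far apart, with a 4.34-fold rise (log2 fold change 2.12 ± 0.18, adjusted p = 6.8e-06, and 4.7e-05 without replicate 3 of 7000 µM). lipib, a secreted lipase of the phospholipase A1 family (chromosome 24, 24086249 to 24101132), had 6.32, 5.19 and 4.8 CPM at 3500 µM and 10.4, 15.1 and 23.4 CPM at 7000 µM. It rose 3.00-fold, with controls at 6.47 CPM, and was also called without replicate 3 of 7000 µM (adjusted p = 0.0049). cldn2, a tight junction protein that forms cation pores, rose by 1.22 ± 0.22 and the orphan nuclear receptor gene esrrgb by 1.2 ± 0.22, both also called without replicate 3. esrrgb had 2.75, 2.53 and 1.74 CPM at 3500 µM and 4.83, 5.57 and 5.77 CPM at 7000 µM.

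The largest fall by the same rule was dhrs13a.2, a short-chain dehydrogenase gene (chromosome 10, 36784756 to 36793412). It had 29.5, 32.0 and 18.4 CPM at 3500 µM and 5.64, 4.48 and 2.52 CPM at 7000 µM, with controls at 15.9 ± 1.98 CPM (SD, n = 3). All 3500 µM libraries were above and all 7000 µM libraries below the control mean, and the log2 fold change was -2.66 ± 0.29 (adjusted p = 0.00021, and 0.00082 without replicate 3 of 7000 µM). gpr186, a G protein-coupled receptor gene, had 27.0, 61.5 and 14 CPM at 3500 µM and 8.26, 4.3 and 7.79 CPM at 7000 µM. Like the immediate early genes it was highest in replicate 2 of 3500 µM. cyldb, a deubiquitinase that restrains NF-kB, had 11.9, 9.53 and 7.25 CPM at 3500 µM and 2.39, 3.03 and 1.91 CPM at 7000 µM. Its fall of 1.97 ± 0.26 on the log2 scale (adjusted p = 0.00075) and that of the cargo adaptor gene bicdl2l, of 2.31 ± 0.45 (adjusted p = 0.008), were also called without replicate 3. klhl43, a kelch protein gene, and the myosin heavy chain gene myhc4 fell by 2.24 and 2.09, and both calls were lost without that library.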

How the data were processed

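Read counts per transcript were deposited by the authors as whole numbers for 18 samples, with gene identifiers and positions, per the file headers. Which aligner, counter, build and strand setting were used, and how multiply mapping reads were handled, is not given in the sources used here. Counts of 59876 transcripts were summed to 32520 genes, of which 5298 had no count. Low genes were removed with filterByExpr, libraries were scaled by TMM, and a quasi-likelihood model with a mean per group was fitted to all 18 libraries (edgeR 4.0.16, R 4.3.3, limma 3.58.1). Replicates varied by 13% on average (common dispersion 0.017). The contrast of 7000 with 3500 µM was tested two-sided, with Benjamini-Hochberg adjustment over 21046 genes and a threshold of 0.05. Scripts were tested on simulated data.

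Members of 43 gene lists were matched by symbol. The comparison and the lists were chosen with earlier results of these data known. Genes were named by rule: the 12 largest rises and 12 largest falls at 5 CPM or more, without overlap between groups and with a gene symbol, and up to 4 called members of a list with the largest change, 138 genes in all. Genes named outside it (egr1, npas4a, nfkbiaa, ampd1, myog, ryr1b, mb, prph2a, saga, rho, rbp4, prss1, slc12a2, atp6v0a1a, tspo, BX649540.1) were chosen after their values were seen. Alternatives were the 6 libraries alone, median-of-ratios scaling, other filters, DESeq2 1.42.0, voom with sample weights, a replicate block, transcripts, and each library left out.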

Additional observations from a re-analysis of the deposited data

How the results depend on the processing

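The 1321 calls (513 higher, 808 lower) stayed within 1.5 times under median-of-ratios scaling (672 higher, 696 lower), without mitochondrially encoded and ribosomal RNA genes, and under both other filters. DESeq2 called 930 higher and 951 lower, 49.4% of them higher. Fitting the 6 libraries alone called 206 genes (83 higher, 123 lower). Voom with sample quality weights called 3716 (1578 higher, 2138 lower), and transcripts in place of genes 565 (245 higher, 320 lower). The 5 libraries without replicate 3 of 7000 µM, fitted alone, called 465 (122 higher, 343 lower). Leaving out each library in turn gave 287 to 1726 calls, 90 to 651 higher and 178 to 1075 lower, with 331 calls (153 higher, 178 lower) without replicate 1 of 3500 µM. The muscle share differed by -9.08 to -5.69 percentage points and the mitochondrially encoded share by -0.133 to 1.69, negative without replicate 3 of 7000 µM. The cause of these shifts was not tested. With the replicate number as a block 1007 genes were called (395 higher, 612 lower). Same-numbered samples of the 2 groups correlated at 0.0427, 0.13 and 0.17 in their deviations, and all but replicate 1 of 3500 µM correlated best with their own number. The labels do not state whether a number marks a batch, so a pairing is not settled. The main fit did not treat the samples as paired. Of 138 named genes 48 kept their call without replicate 3 of 7000 µM, 53 without replicate 1 of 3500 µM, 47 with the 6 libraries alone, 116 with the block and 132 under median-of-ratios scaling, and no sign changed. Depth limits the genes at the lowest levels, such as plac8.2.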

Other observations

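Groups in this section were chosen after their values were seen, so their counts are descriptions. Hox genes, which set position along the body axis, were lower at 7000 than at 3500 µM. Of 47 tested 46 had a negative log2 fold change, 18 fell and 0 rose, with a median of -0.86, and without replicate 3 of 7000 µM 6 fell at a median of -0.63. The median was -0.30 for the 13 genes of paralog groups 1 to 4, which act in the hindbrain and neck, -0.69 for the 12 genes of groups 5 to 8 and -1.05 for the 22 genes of groups 9 to 13, which act in the posterior trunk and tail. Of these 1, 5 and 12 fell. The same order of medians was seen without replicate 3 of 7000 µM, at -0.18, -0.49 and -0.84. hoxb9a (chromosome 3, 23677351 to 23682436) had 24.9, 23.7 and 23.3 CPM at 3500 µM and 12.4, 13.9 and 8.02 CPM at 7000 µM, a log2 fold change of -1.07 ± 0.19 (edgeR adjusted p = 0.0059), with controls at 18.3 CPM. The anterior gene hoxd3a had 44.6, 41.9 and 42.3 CPM at 3500 µM and 28.4, 32.5 and 21.7 CPM at 7000 µM, a log2 fold change of -0.64 ± 0.11. The muscle share of counts fell in the same libraries, from 15.5% to 18.3% at 3500 µM to 4.24% to 11% at 7000 µM, and its part in the hox values was not tested.

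Of 11 annotated histone genes 3 fell and 0 rose, and all 3 falls were called without replicate 3 of 7000 µM. FP236812.1, annotated as a histone H2B gene, had 23.9, 35.3 and 16.7 CPM at 3500 µM, 5.59, 2.67 and 4.32 CPM at 7000 µM and 6.14 CPM in controls. hist2h2l had 165, 177 and 163 CPM at 3500 µM and 101, 88.6 and 113 CPM at 7000 µM, with controls at 79.5 CPM.

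plac8.2 was near 0 at 3500 µM, with 0, 0.130 and 0 CPM, and had 1.11, 1.21 and 1.23 CPM at 7000 µM. The neuropeptide gene pth2, which in zebrafish follows the presence of other fish, had 1.69, 1.04 and 1.14 CPM at 3500 µM and 3.2, 3.51 and 4.65 CPM at 7000 µM, with controls at 0.583 CPM. Both rises were also called without replicate 3 of 7000 µM (edgeR adjusted p = 0.022 and 0.034). Besides the gene described above, rpph1, the RNA of ribonuclease P, had 2.21, 0.667 and 12.7 CPM at 7000 µM, and zgc:158463 had 5192, 1953 and 13422 CPM, both highest in replicate 3 and neither called without it. At 3500 µM they had 0.814, 0.194 and 0.779 CPM and 1788, 1414 and 2872 CPM. Their control means were 0.670 ± 0.597 and 4101 ± 2574 CPM (SD, n = 3 each), so both also varied widely in unexposed larvae.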
